A study of Mus musculus with 12 samples.

Results

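The 40 genes described here are RNA polymerase I subunits, their initiation factors and ribosome assembly factors, chosen by gene symbol among the 24538 gene rows of both deposited count tables. RNA polymerase I transcribes the ribosomal RNA genes in the nucleolus, and its product, a long precursor RNA, is cut, chemically modified and packed with ribosomal proteins by a large set of assembly factors. The initiation factors bring the polymerase to the ribosomal DNA promoter, small nucleolar RNA (snoRNA) particles of the box C/D and box H/ACA classes guide methylation and pseudouridylation of the precursor, and separate groups of factors carry the small and the large ribosomal subunit through maturation. In blood-forming cells, protein synthesis is held low in stem cells and is higher in the dividing progenitors that follow them. By role the 40 genes are 5 polymerase I subunits, 6 initiation factors, 5 nucleolar regulators, 4 proteins of the box C/D particle, 4 of the box H/ACA particle, 8 factors of small subunit assembly and 8 of large subunit assembly. All 40 passed the filter on low counts in every fit, and none was at 0 in any library.

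The study sequenced RNA of mouse blood stem and progenitor cells that lack Tet2, a dioxygenase of methylated cytosine, or carry a mutant Tet2, and its title asks about functions of Tet2 beyond catalysis. LSK cells are the marrow fraction negative for lineage markers and positive for Sca-1 and Kit, which contains the stem cells. MPP, the label of the other libraries, stands for multipotent progenitor. The groups were LSK Tet2 KO, LSK Tet2 Mut, LSK wild type (WT), MPP Tet2 KO, MPP Tet2 Mut and MPP WT, all from 10-week-old mice on a mixed 129/C57/B6 background. Cells of 2 mice per genotype were pooled, and each pool and population gave 2 technical libraries, 12 libraries in all, so each error and p-value below reflects how libraries made from a shared pool varied, with no measure of mice. The labels do not name the altered residues of Mut, the KO construct or the MPP gate, and the titles call the MPP libraries Lin. In bulk RNA, fewer cells of a type and less RNA per cell cannot be told apart.

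The libraries held 9181027 to 23532847 gene counts. Tet2 itself stood at 29.2 and 31.7 CPM (counts scaled to library size) in LSK KO and 43.4 and 44.4 CPM in LSK Mut, against 87.3 and 62.7 CPM in LSK WT, and at 34.9 and 34.9 CPM in MPP KO and 40.2 and 37.4 CPM in MPP Mut, against 39.6 and 29.4 CPM in MPP WT. No Tet2 difference between genotypes passed the test, so in MPP the count of Tet2 does not check the labels. CPM are given throughout on library sizes scaled by TMM over all 12 libraries. The summed CPM of 8 proliferation markers was 1700.0 to 2047 in the LSK libraries and 2646 to 3231 in the MPP libraries (Mcm2 had 238 and 193 CPM in LSK WT and 691 and 662 CPM in MPP WT, but Mki67 had 261 and 455 CPM in LSK WT and 271 and 302 CPM in MPP WT), that of 6 granulocyte-monocyte progenitor markers was 2035 to 6010 and 46241 to 61057, and that of 10 gate and stem cell markers was 2770 to 3448 and 721 to 908. Mpo, a granulocyte-monocyte progenitor marker, had 36782 and 38129 CPM in MPP WT and 1522 and 1638 CPM in LSK WT. MPP is therefore used here as a label only, and the share of multipotent cells in it was not measured. The LSK WT libraries stood apart. Among genes of at least 5 CPM, 49.7% differed by 1.5-fold or more between the 2 LSK WT libraries. Between the libraries of each other group it was 17.7 to 24.4%. Among the 40 genes the count was 17 in LSK WT and 2 to 4 in the other groups.

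**Figure D1:**
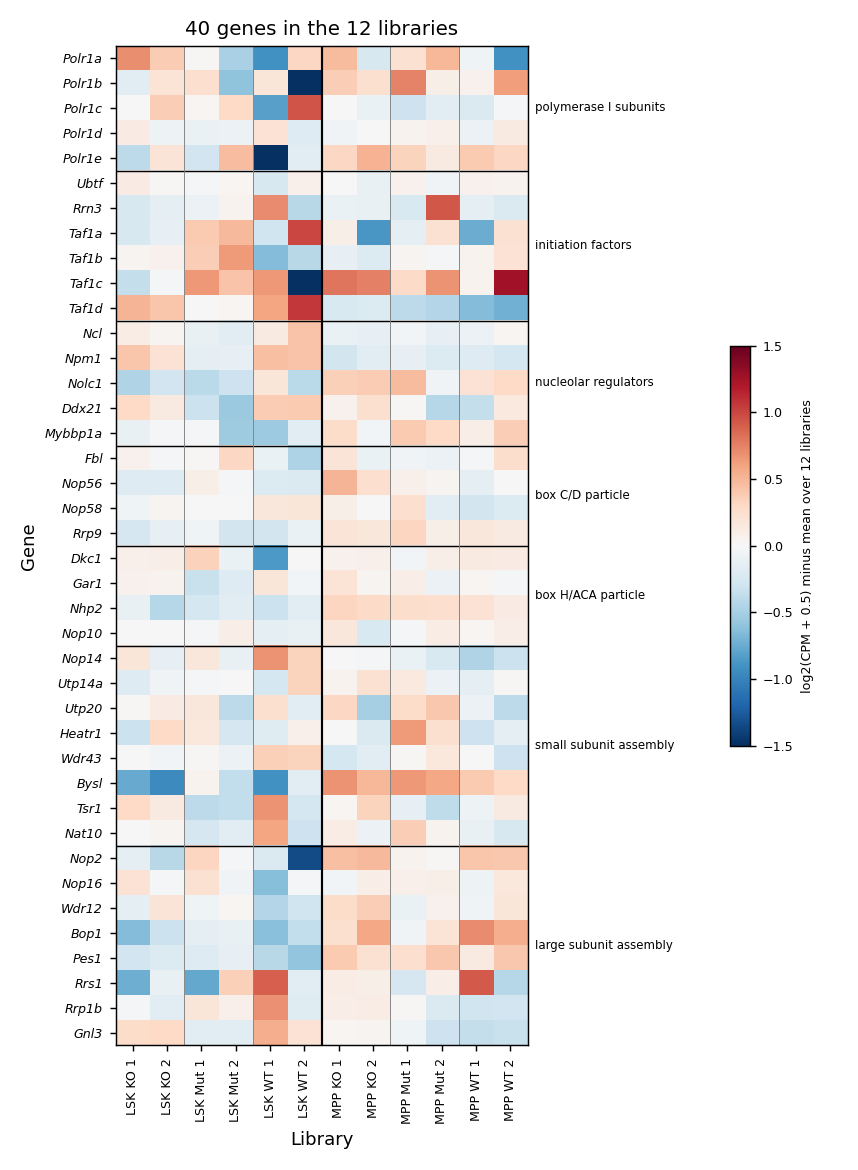
Each of the 40 genes (rows, grouped by role) in the 12 libraries (columns, replicate number last), coloured by log2(CPM + 0.5) minus the gene's mean over the 12 libraries. Colours are pale in most rows, the largest deviations lie in the 2 LSK WT columns, and Taf1d and Npm1 are above their means in LSK KO and LSK WT and below in MPP.

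Levels of the 40 genes spanned a wide range on a scale of CPM per kilobase of annotated exon. Nop10 and Nhp2, small proteins of the box H/ACA particle, averaged 303 and 248 CPM per kilobase over the 12 libraries. Npm1, the nucleolar chaperone nucleophosmin, followed at 204 CPM per kilobase, and Ncl, the RNA-binding protein nucleolin, at 116. At the low end stood Utp20, a large small-subunit factor, at 4.41, and Polr1a, the largest subunit of the polymerase, at 5.44 CPM per kilobase. The exon length is the union of all annotated transcripts, which understates the level of genes with retained-intron transcripts. The 40 genes together took 0.657 to 0.776% of the gene counts of a library.

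Between genotypes, 1 of the 40 genes changed past the threshold in 1 of 6 comparisons. Npm1 was lower in LSK Mut than in LSK WT, and the other 39 genes did not pass there, at a background of 1.28% of 13170 genes called in either direction and 0.737% called lower. In the other 5 comparisons 0 of 40 genes passed edgeR's quasi-likelihood test at an adjusted p below 0.05, with backgrounds of 0.0456% in LSK KO against WT, 0.0607% in LSK KO against Mut, 0.363% in MPP KO against WT, 0.224% in MPP Mut against WT and 0.239% in MPP KO against Mut. At an unadjusted p below 0.05 the counts higher and lower were 0 and 1 in LSK KO against WT, 2 and 6 in LSK Mut against WT, 4 and 0 in LSK KO against Mut, 4 and 0 in MPP KO against WT, 2 and 2 in MPP Mut against WT, and 2 and 1 in MPP KO against Mut. In the same order, 13.8, 19.1, 4.24, 8.47, 9.75 and 9.48% of all genes tested had an unadjusted p below 0.05 in either direction. DESeq2 called 0, 7, 2, 1, 0 and 1 of the 40 genes in the same order, against 4.5%, 10.6%, 0.881%, 2.1%, 2.33% and 2.22% of all genes. The median log2 difference of the 40 genes was -0.031 in LSK KO against WT, -0.075 in LSK Mut against WT, -0.0044 in LSK KO against Mut, 0.062 in MPP KO against WT, 0.054 in MPP Mut against WT and 0.016 in MPP KO against Mut. The median of all genes tested lay between -0.010 and 0.010 in these comparisons.

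**Figure D2:**
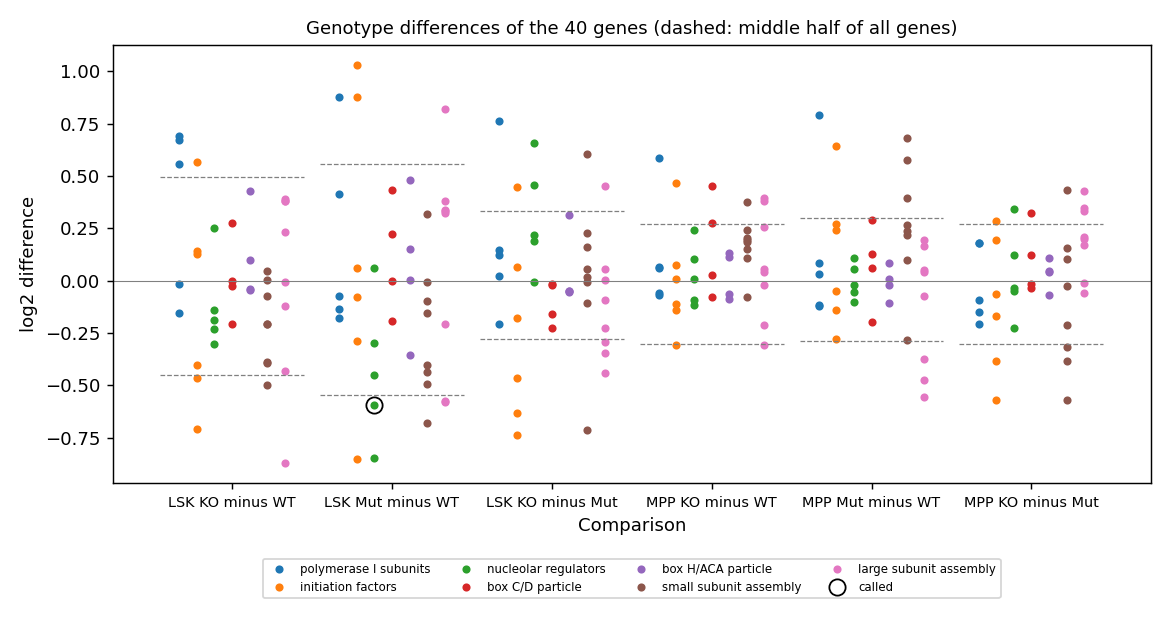
Log2 difference (vertical axis) of each of the 40 genes in the 6 genotype comparisons (horizontal axis), coloured by role, with a black ring around the called gene and dashed lines at the lower and upper quartile of all genes tested. Most points lie within the quartiles, and the ring marks Npm1 at -0.59 in LSK Mut minus WT.

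The row Rn45s, named for the 45S ribosomal RNA precursor that polymerase I makes, was lower in LSK Mut and, by less, in LSK KO than in LSK WT. How much of its count is precursor RNA was not tested. Rn45s had 23520.1 and 23597 CPM in LSK KO and 9144 and 10166 CPM in LSK Mut, against 35322 and 35642 CPM in LSK WT. Both Mut libraries lay below both KO libraries, and these below both WT libraries, with a log2 difference of -1.90 (SE 0.0497, adjusted p = 7.52e-06) for Mut against WT. In edgeR the log2 difference was -0.61 (SE 0.0482, adjusted p = 0.00967) for KO against WT and 1.29 (SE 0.0488, adjusted p = 9.81e-05) for KO against Mut. In MPP the 6 libraries held 9233 to 11794 CPM, close to LSK Mut. Scaled to the spike-in RNAs the difference of LSK Mut from WT was -0.78 and no longer passed in edgeR (adjusted p = 0.116). Whether equal spike-in amounts were added per cell is not stated, so values on that scale, here and below, do not measure RNA per cell. Beside the Rn45s difference, edgeR called no polymerase I subunit or initiation factor in LSK Mut against WT, while DESeq2 called Taf1b higher and Taf1d lower. Other rows moved in the same comparison. Lars2 had 12074 and 12067 CPM in LSK KO and 4436 and 4104 CPM in LSK Mut, against 17048 and 18262 CPM in LSK WT. The 6 granulocyte-monocyte progenitor markers were all lower in LSK WT than in MPP WT, and all 6 had log2 differences above 0 in LSK Mut against WT. Of these, 2 were called by edgeR, Mpo at 1.49 and Elane at 1.63 (adjusted p = 2.20e-04 and 0.0241). Their summed CPM was 5774 to 6010 in LSK Mut and 4711 to 4997 in LSK KO, against 2035 to 2408 in LSK WT. Mpo was also called by edgeR in LSK KO against WT, at 1.29 (adjusted p = 0.00244). In LSK Mut against WT, Mcm2, a proliferation marker, Cd48, a gate marker, and Nkg7, a T and NK cell marker, were also higher, at 0.96, 0.94 and 0.73. Each was the only marker of its list called, and other markers of these lists did not all follow. Mki67 had 256 and 226 CPM in LSK Mut, against 261 and 455 CPM in LSK WT. Hlf had 118 and 118 CPM, against 235 and 176 CPM, while Ly6a had 121 and 126 CPM, against 93.3 and 58.4 CPM. Cd3e had 0 CPM in these libraries. The part of these shifts in the differences of Rn45s, Npm1 and the other genes described was not tested.

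Polr1a had 98.7 and 79.1 CPM in LSK KO and 61.4 and 43.2 CPM in LSK Mut, against 32.3 and 75.8 CPM in LSK WT. Polr1b, the second large subunit, had 56.0 and 72.0 CPM in LSK KO and 74.8 and 41.0 CPM in LSK Mut, against 71.0 and 15.2 CPM in LSK WT. Polr1e, a subunit of the polymerase's peripheral pair, had 35.0 and 52.6 CPM in LSK KO and 37.5 and 63.6 CPM in LSK Mut, against 12.8 and 41.3 CPM in LSK WT. For all 3 genes the WT libraries lay far apart and overlapped the range of LSK Mut. Their log2 differences for LSK Mut against WT were -0.072 (SE 0.428), 0.41 (SE 0.657) and 0.88 (SE 0.590), with adjusted p-values of 0.949, 0.784 and 0.462. In MPP, Polr1a had 85.1 and 51.6 CPM in KO and 71.2 and 86.3 CPM in Mut, against 58.3 and 32.1 CPM in WT, and its log2 differences against WT of 0.59 and 0.79 did not pass either (adjusted p = 0.710 and 0.511). The remaining subunits, Polr1c and Polr1d, which the polymerase shares with RNA polymerase III, had log2 differences of -0.18 to 0.18 in the 6 genotype comparisons.

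Among the initiation factors, Ubtf, which binds ribosomal DNA along its length, varied little, with 198 and 183 CPM in LSK KO and 179 and 185 CPM in LSK Mut, against 153 and 191 CPM in LSK WT. Its log2 difference for LSK Mut against WT was 0.061 with an SE of 0.167. Rrn3, the factor that ties the polymerase to its promoter complex, had 57.0 and 61.4 CPM in LSK KO and 63.7 and 70.2 CPM in LSK Mut, against 111 and 50.5 CPM in LSK WT. The WT libraries enclosed the other 4, and in MPP a single Mut library, replicate 2, stood at 129 CPM while the other 5 MPP libraries held 57.4 to 62.9 CPM.

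Taf1a, Taf1b, Taf1c and Taf1d are subunits of the selectivity factor that recognises the ribosomal DNA promoter, and they did not move together. Taf1b had 48.2 and 49.1 CPM in LSK KO and 60.9 and 73.2 CPM in LSK Mut, against 29.6 and 35.1 CPM in LSK WT. All Mut libraries were above all KO libraries and these above all WT libraries, with a log2 difference of 1.03 (SE 0.297, adjusted p = 0.136) for Mut against WT in edgeR. It did not pass there, but passed in DESeq2 (adjusted p = 0.0232) and in edgeR on a spike-in scale (0.00902). Taf1a had 22.7 and 24.7 CPM in LSK KO and 35.6 and 37.8 CPM in LSK Mut, against 21.8 and 54.4 CPM in LSK WT. Taf1c had 24.8 and 31.5 CPM in LSK KO and 50.4 and 43.3 CPM in LSK Mut, against 50.2 and 0.399 CPM in LSK WT. In both genes the WT libraries enclosed most others, and Taf1c was near 0 in LSK WT replicate 2 alone, with a log2 difference of 0.88 (SE 1.37, adjusted p = 0.778) for Mut against WT. Without LSK WT replicate 1 that value was 6.83 and without replicate 2 it was -0.11, and exons of Dnaaf1 on the other strand cover 16.7% of its exon bases. Taf1d ran opposite to Taf1b, with 183 and 172 CPM in LSK KO and 129 and 131 CPM in LSK Mut, against 193 and 269 CPM in LSK WT. The groups did not overlap, and the difference of Mut from WT was a log2 difference of -0.85 (SE 0.193, adjusted p = 0.0836), short of the threshold. The difference passed in edgeR with no filter on low counts (adjusted p = 0.0353) and in DESeq2 (0.00225). Its log2 value ran from -1.07 to -0.58 with 1 library left out, and scaled to the spike-in RNAs it turned to 0.23. In MPP, Taf1d had 109 and 111 CPM in KO and 97.7 and 94.8 CPM in Mut, against 81.7 and 77.3 CPM in WT, lowest in WT.

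Taf1d was thus lower in Mut than in WT libraries in LSK and higher in MPP, and the difference between the populations was tested directly. The Mut effect in LSK minus that in MPP was a log2 difference of -1.11 (SE 0.240, adjusted p = 0.0368) for Taf1d and a log2 difference of -0.63 (SE 0.137, adjusted p = 0.0368) for Npm1, the only 2 of the 40 genes called at a background of 2.53% of 14033 genes in either direction and 1.01% lower. For Rn45s the same contrast gave a log2 difference of -1.69 (SE 0.0959, adjusted p = 7.52e-06) in edgeR. The KO effect in LSK minus that in MPP gave 0 of 40 called at a background of 0.727%, with 1 of 40 higher and 6 of 40 lower at an unadjusted p below 0.05 in edgeR, against 12.4% of all genes in either direction, and DESeq2 called 1, Taf1d, against 4.13% of all genes. The Npm1 and Taf1d interactions were lost with any single MPP library left out and with either LSK Mut library left out, at adjusted p-values up to 0.147, and Taf1d also without either LSK KO library, at 0.0661 for each. With the replicate number as a block both had an adjusted p of 0.0605. Scaled to the spike-in RNAs both turned positive, at 1.03 for Npm1, which passed in that direction (adjusted p = 0.0480), and 0.54 for Taf1d (adjusted p = 0.341), and the Rn45s value was -0.0016 (adjusted p = 0.9998).

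**Figure D3:**
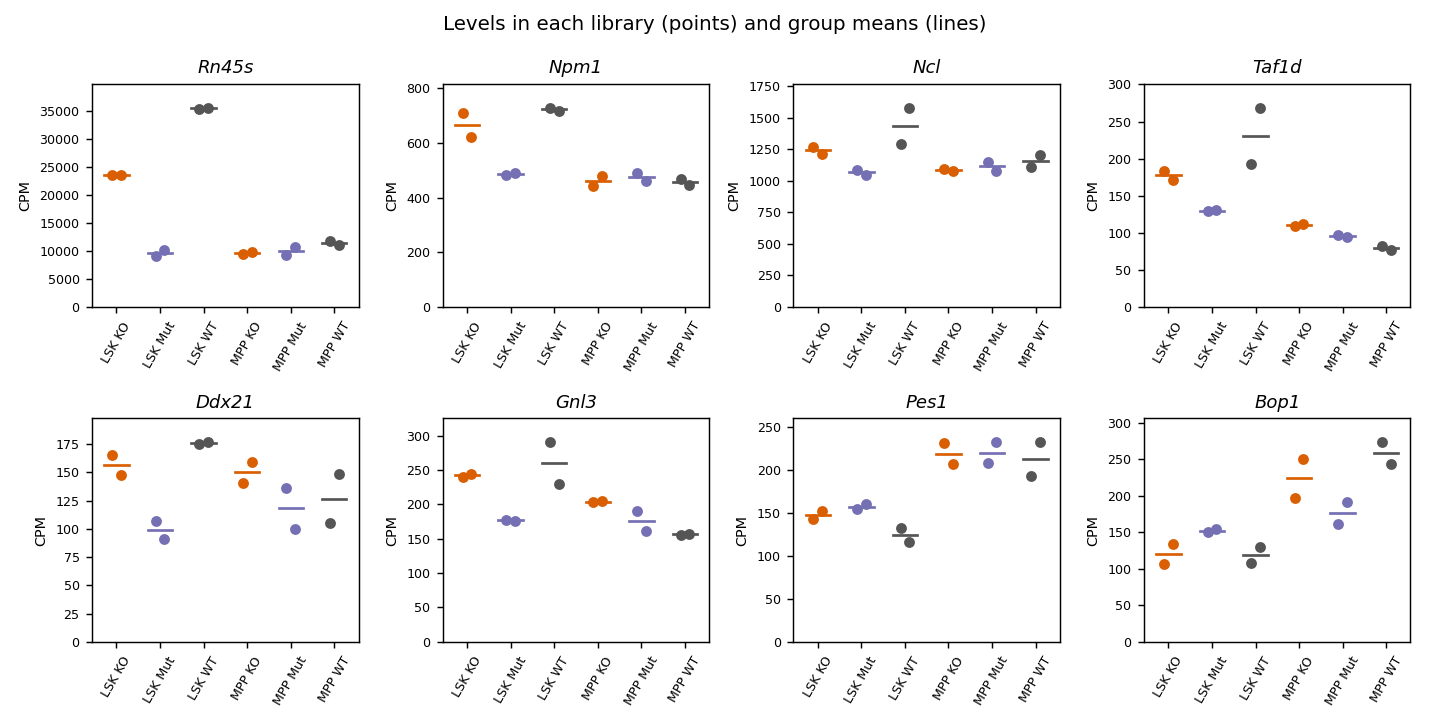
CPM (vertical axes, each from 0) of Rn45s and 7 of the 40 genes in each library (points) and the mean of each group (lines), in KO (orange), Mut (purple) and WT (grey) of LSK and then MPP. LSK Mut is the lowest LSK group for Rn45s, Npm1, Ncl, Taf1d, Ddx21 and Gnl3, and Pes1 and Bop1 are lower in LSK than in MPP. The 7 genes were picked and do not stand for the 40. The order of the LSK libraries in Rn45s was found in 4 of the 40 genes, all drawn. The opposite order was found in 3, of which Pes1 is drawn and Taf1b and Nop56 are not.

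The nucleolar regulators included the sole called gene. Npm1 lies on the minus strand of chromosome 11 (33152287 to 33163206, GRCm38) and encodes a chaperone that carries ribosomal particles and is often mutated in acute myeloid leukaemia. It had 711 and 621 CPM in LSK KO and 481 and 489 CPM in LSK Mut, against 729 and 717 CPM in LSK WT. Both Mut libraries lay below all 4 other LSK libraries and within the range of the MPP libraries, 443 to 490.0 CPM. The log2 difference of Mut from WT was -0.59 with an SE of 0.105 and an adjusted p of 0.04998, a value at the threshold. Leaving out LSK KO replicate 1, LSK KO replicate 2, LSK Mut replicate 1 or LSK Mut replicate 2 took the adjusted p to 0.154, 0.162, 0.398 and 0.317, with log2 differences of -0.59, -0.59, -0.58 and -0.60. The replicate block gave an adjusted p of 0.0838, the spread of the Mut and WT libraries alone 0.178, and a fit without the Rn45s and Lars2 rows 0.0523, while DESeq2 gave 2.37e-06. Scaling to the spike-in RNAs turned the log2 difference to 0.51. Processed pseudogenes with near-identical sequence, 4 for Npm1, are annotated outside the counted rows, so its count is uncertain. For KO against Mut in LSK the Npm1 log2 difference was 0.46 (SE 0.105, adjusted p = 0.614).

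Ncl had 1269 and 1213 CPM in LSK KO and 1089 and 1045 CPM in LSK Mut, against 1293 and 1579.9 CPM in LSK WT. Ddx21, an RNA helicase of the nucleolus, had 165 and 148 CPM in LSK KO and 107 and 91.1 CPM in LSK Mut, against 175 and 177 CPM in LSK WT. In both genes the Mut libraries were lowest and the WT libraries highest, without overlap. For Mut against WT, Ncl gave a log2 difference of -0.45 (SE 0.110, adjusted p = 0.0978), and Ddx21 gave a log2 difference of -0.85 (SE 0.173, adjusted p = 0.0639), so neither passed in edgeR. DESeq2 called both. With 1 library left out, the log2 difference of Ddx21 ran from -0.96 to -0.73 in edgeR. Ddx21 also passed with no filter on low counts (adjusted p = 0.0351), and on a spike-in scale its log2 difference turned to 0.22. In MPP, Ncl held 1078 to 1202 CPM and Ddx21 100.1 to 159 CPM, and for Ddx21 the WT libraries overlapped both other genotypes. Nolc1, a chaperone of snoRNA particles, had 157 and 175 CPM in LSK KO and 161 and 172 CPM in LSK Mut, against 243 and 161 CPM in LSK WT. Mybbp1a, a nucleolar partner of transcription factors, had 353 and 378 CPM in LSK KO and 376 and 264 CPM in LSK Mut, against 263 and 343 CPM in LSK WT. Both genes had overlapping libraries in LSK Mut and LSK WT and log2 differences for Mut against WT of -0.30 and 0.059, with adjusted p-values of 0.487 and 0.910.

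The order of the LSK libraries in Rn45s, with both Mut libraries below both KO libraries and these below both WT libraries, was found in Npm1, Ncl, Ddx21 and Taf1d. That is 4 of 40 genes, against 4.63% of the 13170 genes tested in LSK. The opposite order was found in 3 of 40, namely Taf1b, Nop56 and Pes1, against 5.43% of all genes. Both shares rest on few genes, and these comparisons share their libraries.

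No snoRNA particle protein passed between genotypes. Fbl, the methyltransferase of the box C/D particle, had 43.0 and 40.0 CPM in LSK KO and 41.5 and 51.1 CPM in LSK Mut, against 38.1 and 29.5 CPM in LSK WT, and a log2 difference of 0.44 (SE 0.333, adjusted p = 0.522) for Mut against WT. Nop56, a scaffold protein of the same particle, had 607 and 505 CPM in MPP KO and 447 and 439 CPM in MPP Mut, against 385 and 426 CPM in MPP WT. Both KO libraries were highest in MPP, with a log2 difference of 0.45 (SE 0.107, adjusted p = 0.221) for KO against WT, which did not pass, although DESeq2 and a fit with no filter on low counts called it. Dkc1, the pseudouridine synthase of the box H/ACA particle, had 332 and 338 CPM in LSK KO and 401 and 294 CPM in LSK Mut, against 173 and 316 CPM in LSK WT. Its lowest library was LSK WT replicate 1, and in MPP it stayed within 305 to 344 CPM. Near-identical pseudogenes are annotated for Fbl and Nop56, and also for Taf1b, Taf1d, Ddx21, Wdr12 and Pes1, so the counts of these genes are uncertain.

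In small subunit assembly, 7 of 8 genes had a fitted log2 difference below 0 in LSK Mut against WT and 7 of 8 above 0 in MPP Mut against WT, with medians of -0.28 and 0.25 and 0 called in each. The medians of all genes tested were 0.010 and -0.0027. In the direct test of the Mut effect in LSK minus MPP their median was -0.65, against 0.081 for all genes, again with none of the 8 called. Heatr1, a scaffold of the early small subunit particle, had 64.8 and 56.0 CPM in MPP KO and 102 and 77.2 CPM in MPP Mut, against 52.4 and 59.3 CPM in MPP WT. Both Mut libraries were the highest in MPP, with a log2 difference of 0.68 (SE 0.220, adjusted p = 0.385) for Mut against WT. Tsr1, a late small subunit factor, had 54.9 and 49.3 CPM in LSK KO and 34.0 and 34.5 CPM in LSK Mut, against 71.5 and 37.0 CPM in LSK WT. The Mut libraries were lowest, but exons of Srr on the other strand cover 32.3% of the exon bases of Tsr1, and the strand setting of the counting was not given. Wdr43, part of the early small subunit particle, had 241 and 233 CPM in LSK KO and 242 and 225 CPM in LSK Mut, against 308 and 303 CPM in LSK WT. KO and Mut lay at one level below WT, and neither difference passed in edgeR (adjusted p = 0.291 for KO and 0.165 for Mut), while DESeq2 called that of Mut. Utp20 had 31.0 to 58.4 CPM over all 12 libraries, with every group overlapping another.

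In large subunit assembly, Gnl3, the nucleolar GTPase nucleostemin, had 240.0 and 244 CPM in LSK KO and 177 and 176 CPM in LSK Mut, against 290.4 and 230.2 CPM in LSK WT. Both Mut libraries were below the other 4. The log2 difference of -0.58 (SE 0.157, adjusted p = 0.122) for Mut against WT did not pass in edgeR but was called by DESeq2. Nop2, an RNA methyltransferase of the large subunit, had 137 and 114 CPM in LSK KO and 191 and 149 CPM in LSK Mut, against 131 and 59.95 CPM in LSK WT. The Mut libraries were highest, but the WT libraries differed by more than 2-fold from each other and the difference of 0.82 had an SE of 0.350. Rrs1, which helps to bring the small ribosomal RNA of the large subunit into place, had 44.3 and 68.2 CPM in LSK KO and 43.2 and 94.9 CPM in LSK Mut, against 138 and 65.5 CPM in LSK WT, a spread within groups as wide as that between them.

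The partners Pes1, Bop1 and Wdr12 form a complex needed for large subunit maturation, and Pes1 and Bop1 were called between the cell populations in KO and WT and in no genotype comparison. Pes1 had 143 and 152 CPM in LSK KO, 154 and 160.4 CPM in LSK Mut and 132 and 116 CPM in LSK WT, against 231 and 206 CPM in MPP KO, 208 and 232 CPM in MPP Mut and 192 and 232 CPM in MPP WT. Bop1 had 106 and 133 CPM in LSK KO, 150.1 and 154 CPM in LSK Mut and 108 and 129.6 CPM in LSK WT, against 198 and 250.5 CPM in MPP KO, 161 and 192 CPM in MPP Mut and 273 and 243 CPM in MPP WT. Every LSK library was below every MPP library in both genes. The log2 differences of LSK from MPP in WT were -0.77 (SE 0.148, adjusted p = 0.00327) for Pes1 and -1.12 (SE 0.181, adjusted p = 0.00117) for Bop1.

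LSK and MPP differed in more of the 40 genes, in KO and in WT, than any pair of genotypes did. In WT, 13 of 40 genes passed, against a background of 24% of 14033 genes. Of these, 7 were higher in LSK, at a background of 10.2%, and 6 were lower, at 13.7%, so the total was near the background. In KO, 2 were higher and 6 lower, at backgrounds of 7.03% and 8.14%, or 15.2% in either direction. In Mut, 1 gene was lower and 0 were higher, at 5.21% and 3.55%, or 8.76% in either direction. These directions hold for libraries scaled by their gene counts. MPP libraries held 3.16 to 5.15% spike-in counts against 0.0822 to 0.229% in LSK. On a spike-in scale all 40 genes were higher in LSK in every genotype, with the median of all genes at 4.17 to 5.88 on the log2 scale. Whether equal spike-in amounts were added per cell is not stated, so these signs give no direction per cell.

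Higher in LSK WT than in MPP WT were Taf1d, Nop14, Gnl3, Npm1, Wdr43, Nop58 and Ncl. Taf1d had the largest difference, 1.54 (SE 0.173, adjusted p = 1.06e-04), and was higher in LSK in KO as well, by 0.68 (SE 0.170, adjusted p = 0.0203). In Mut its log2 difference was 0.43 and did not pass (adjusted p = 0.150). Npm1 was higher in LSK by 0.66 (SE 0.0973, adjusted p = 6.34e-04) in WT and by 0.53 (SE 0.0971, adjusted p = 0.00413) in KO, while in Mut its log2 difference was 0.027 with an SE of 0.0968. Both genes kept their call in WT in each of 12 fits with a library left out. Nop14, a scaffold of the small subunit particle, had 121 and 96.1 CPM in LSK WT, against 55.4 and 60.9 CPM in MPP WT. Nop58, the partner of Nop56, had 379 and 385 CPM in LSK WT, against 278 and 294 CPM in MPP WT. The libraries did not overlap in either gene, with log2 differences of 0.90 and 0.42. With a library left out, the call of Nop58 held only without MPP Mut replicate 1 or 2 and that of Ncl only without LSK WT replicate 1, with adjusted p-values up to 0.205 and 0.209 over the alternatives. The call of Nop14 was lost without MPP WT replicate 1 or 2 and that of Wdr43 without MPP WT replicate 2, with adjusted p-values up to 0.0917 and 0.168.

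Lower in LSK WT than in MPP WT were Bop1, Nop2, Bysl, Pes1, Mybbp1a and Nhp2. Bysl, a late factor of the small subunit, had 39.9 and 34.8 CPM in LSK KO, 70.2 and 52.3 CPM in LSK Mut and 36.0 and 60.7 CPM in LSK WT, against 109 and 96.2 CPM in MPP KO, 107 and 101 CPM in MPP Mut and 89.5 and 83.5 CPM in MPP WT. Nhp2, a core protein of the box H/ACA particle, had 259 and 208 CPM in LSK KO, 232 and 250.2 CPM in LSK Mut and 223 and 251 CPM in LSK WT, against 351 and 341 CPM in MPP KO, 336 and 334 CPM in MPP Mut and 325 and 305 CPM in MPP WT. Every LSK library was below every MPP library in both, and Nhp2 was the only gene of the 40 called in all 3 genotypes, at log2 differences of -0.57 in KO, -0.47 in Mut and -0.41 in WT. Bysl differed by -1.46 (SE 0.272, adjusted p = 0.00474) in KO and by -0.84 (SE 0.269, adjusted p = 0.0438) in WT, and exons of Ccnd3 on the other strand cover 9.37% of its exon bases. Nop56 and Nolc1 were called lower in LSK by edgeR only in the KO comparison, at log2 differences of -0.58 and -0.73. The difference between their KO and WT values of LSK against MPP did not pass (adjusted p = 0.276 and 0.643). In WT both were also lower in LSK without overlap, Nolc1 at 243 and 161 CPM, against 248 and 263 CPM in MPP. In Mut, Nolc1 had 161 and 172 CPM in LSK, against 298 and 207 CPM in MPP, and DESeq2 called it. The Mut libraries of Nop56 overlapped between LSK and MPP. With a library left out, the WT call of Bysl held only without LSK WT replicate 2, that of Nhp2 only without LSK KO replicate 1 or 2 or LSK WT replicate 2, and that of Mybbp1a in 5 of 12 fits, with adjusted p-values up to 0.213, 0.194 and 0.264 over the alternatives. The call of Nop2 was lost without MPP WT replicate 1 or 2, with adjusted p-values up to 0.149. The KO calls of Taf1d and Pes1 were lost when any 1 of the 4 KO libraries was left out, that of Nolc1 without these or LSK Mut replicate 2, and that of Nhp2 without LSK KO replicate 2 or either MPP KO library, with adjusted p-values up to 0.126, 0.178, 0.201 and 0.142. Those of Npm1, Nop56, Bysl and Bop1 were lost in 1 or 2 fits that left out a KO library, with adjusted p-values up to 0.0542, 0.0732, 0.0520 and 0.0792. The Mut call of Nhp2 held in 4 of 12 fits, with adjusted p-values up to 0.265. By role, the large subunit factors had medians of -0.39 in KO, 0.00065 in Mut and -0.39 in WT, and the median of all genes was 0.048, 0.028 and 0. Of the 8 proliferation markers, 5 were called lower and 1, Top2a, higher in LSK WT than in MPP WT, and their part in these differences was not tested.

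**Figure D4:**
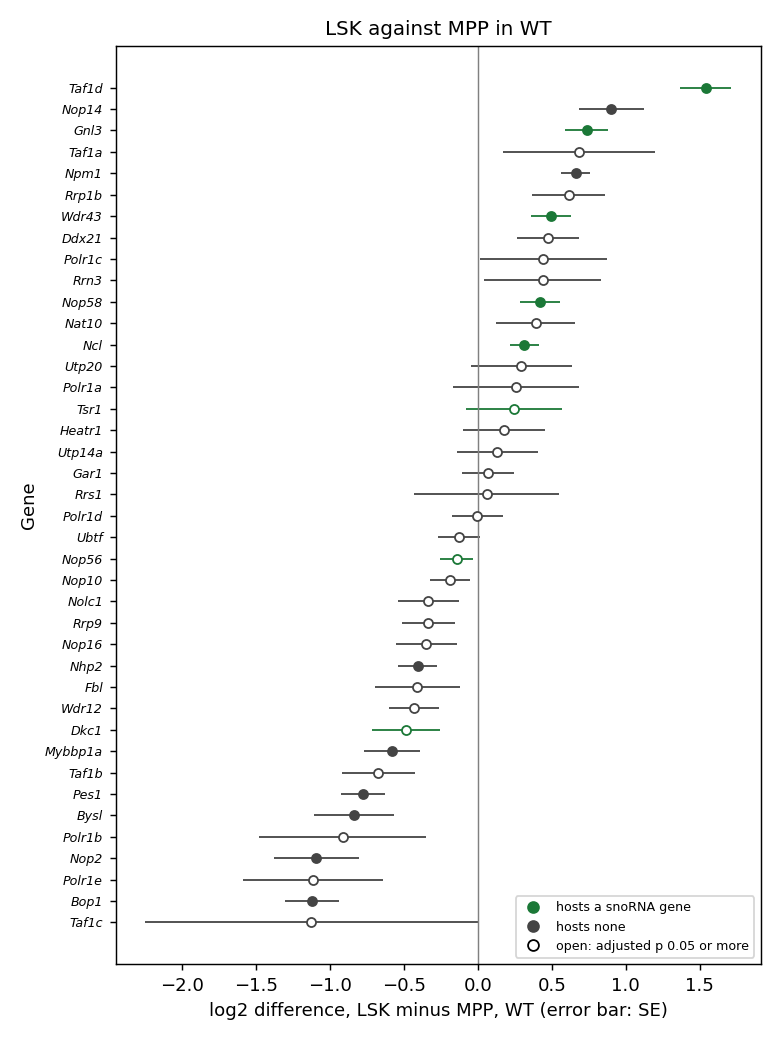
Log2 difference of LSK minus MPP in WT (horizontal axis, error bar 1 SE) for the 40 genes in order of size, filled where the adjusted p was below 0.05, green for genes that host a snoRNA gene. The difference runs from 1.54 for Taf1d at the top to -1.13 for Taf1c at the bottom, whose SE is 1.13, and 5 of the 7 filled points above 0 are green.

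The choice of the 40 genes did not use the snoRNA genes that some of them contain, and 5 of the 7 genes called higher in LSK WT contain them, while Npm1 and Nop14 do not. In the GENCODE annotation, 8 of the 40 genes host snoRNA genes on their own strand: Taf1d hosts 8, Nop56 hosts 5, Nop58 hosts 4, Ncl, Wdr43 and Gnl3 host 3 each, Tsr1 hosts 2 and Dkc1 hosts 1. In WT, 5 of the 8 hosts were called higher in LSK and 0 lower, with a median log2 difference of 0.37. Of the 32 other genes 2 were called higher and 6 lower, with a median of -0.16. Over all genes tested, 65 of 249 hosts were called higher and 31 lower, with a median of 0.25, against a median of 0 for genes that host none. In LSK Mut against WT the 8 hosts had a median of -0.43 and the 32 others of -0.0052, while all hosts tested had -0.22 and all other genes 0.017. Both comparisons share the LSK WT libraries. In LSK against MPP the 8 hosts had medians of 0.11 in KO, with 1 called higher and 1 lower, and -0.039 in Mut, with 0 called by edgeR, and in MPP KO against Mut they had 0.12 where all hosts had -0.0095. On a spike-in scale all 40 genes were higher in LSK.

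Promoter sequences from RefSeq (GRCm38.p6) were found for 36 of the 40 genes, and none is shown for Npm1, Fbl, Bop1 and Rrs1. In a window from 250 bases before to 30 bases after the start, CACGTG, the E-box that Myc and related factors can bind, was present in 5 of 36 promoters (13.9%), against 6.79% of 32851 RefSeq promoters. The Ets core CGGAAG was searched on both strands, so that its complement, read 5′ to 3′ as CTTCCG, also counted, and was present in 18 of 36 (50.0%), against 15.99% of all promoters. It was present in 0 of the 6 promoters found for genes higher in LSK WT and in 3 of the 5 found for genes lower there. Among snoRNA hosts it was present in 1 of 8, and among the others in 17 of 28. The 2 sets are unlike. Each of the 36 genes gave 1 promoter, that nearest its annotated start. The 32851 promoters include several of some genes and were not limited to genes counted in these libraries. These counts describe letters in the window and no binding. The E-box was present in 1 of the 6 promoters found for genes higher in LSK WT, that of Wdr43, and in 2 of the 5 found for genes lower there. Of these 5, that of Bysl holds neither motif. The windows below are examples and do not stand for their sets. Genes higher in LSK WT come first, and capitals mark the E-box and the Ets core on either strand.
Taf1d: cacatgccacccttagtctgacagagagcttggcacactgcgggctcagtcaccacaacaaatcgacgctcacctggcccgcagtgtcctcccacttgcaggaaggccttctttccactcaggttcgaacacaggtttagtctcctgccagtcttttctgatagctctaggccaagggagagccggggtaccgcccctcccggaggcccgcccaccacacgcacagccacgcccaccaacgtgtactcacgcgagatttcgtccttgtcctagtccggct
Ncl: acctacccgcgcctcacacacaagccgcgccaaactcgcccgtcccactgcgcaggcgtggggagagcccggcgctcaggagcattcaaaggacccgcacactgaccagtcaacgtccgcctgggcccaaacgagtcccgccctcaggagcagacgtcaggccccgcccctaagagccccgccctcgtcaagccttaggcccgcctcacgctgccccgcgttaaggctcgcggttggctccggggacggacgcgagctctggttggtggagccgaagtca
Nhp2: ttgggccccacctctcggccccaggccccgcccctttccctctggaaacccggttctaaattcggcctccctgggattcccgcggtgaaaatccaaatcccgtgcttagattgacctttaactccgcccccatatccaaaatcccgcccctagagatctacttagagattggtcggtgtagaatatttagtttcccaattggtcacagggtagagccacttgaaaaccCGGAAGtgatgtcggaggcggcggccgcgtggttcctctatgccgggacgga
Nop2: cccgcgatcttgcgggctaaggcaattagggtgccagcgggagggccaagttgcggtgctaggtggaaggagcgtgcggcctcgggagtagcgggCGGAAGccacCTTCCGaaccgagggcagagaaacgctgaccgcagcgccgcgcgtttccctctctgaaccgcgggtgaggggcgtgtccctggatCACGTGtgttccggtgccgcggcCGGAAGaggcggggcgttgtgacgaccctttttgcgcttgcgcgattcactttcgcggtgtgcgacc
Pes1: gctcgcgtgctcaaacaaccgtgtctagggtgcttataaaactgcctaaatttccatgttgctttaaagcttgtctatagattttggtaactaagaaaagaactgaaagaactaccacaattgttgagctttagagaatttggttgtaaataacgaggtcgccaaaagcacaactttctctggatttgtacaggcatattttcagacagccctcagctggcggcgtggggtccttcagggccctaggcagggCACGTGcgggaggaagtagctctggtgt
Taf1d and Ncl hold neither motif, Nhp2 holds the Ets core, Nop2 holds both and Pes1 holds the E-box. The windows lie at chr9:15305964-15306243 (plus strand) for Taf1d, chr1:86359426-86359705 (minus strand) for Ncl, chr11:51619523-51619802 (plus strand) for Nhp2, chr6:125131633-125131912 (plus strand) for Nop2 and chr11:3963725-3964004 (plus strand) for Pes1. The row of Myc itself had 393 and 374 CPM in LSK KO and 574 and 551 CPM in LSK Mut, against 329 and 448 CPM in LSK WT. Its log2 difference of 0.51 for LSK Mut against WT did not pass in edgeR (adjusted p = 0.162). In MPP it had 307 and 291 CPM in KO, 328 and 332 CPM in Mut and 340 and 418 CPM in WT. For LSK against MPP, edgeR called Myc higher in Mut, at 0.77 (adjusted p = 0.00845). It did not pass in KO, at 0.36, or in WT, at 0.036 (adjusted p = 0.136 and 0.895).

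A list of 101 other assembly genes gave the wider pathway. In LSK Mut against WT, 1 was called higher and 1 lower, close to the 1.28% of all genes called, and in the other 5 genotype comparisons edgeR called 0. Tcof1, the treacle protein that works with polymerase I, had 176 and 189 CPM in LSK KO and 136 and 136 CPM in LSK Mut, against 279 and 346 CPM in LSK WT. Nop9, a small subunit factor, had 72.4 and 89.7 CPM in LSK KO and 117 and 113 CPM in LSK Mut, against 46.5 and 36.4 CPM in LSK WT. The groups did not overlap in either gene: Tcof1 was lowest in Mut, with a log2 difference of -1.22 (SE 0.164, adjusted p = 0.0292), and Nop9 highest in Mut, with 1.45 (SE 0.255, adjusted p = 0.0494). The Mut effect in LSK minus that in MPP was -1.29 for Tcof1 and 1.51 for Nop9 (adjusted p = 0.0230 and 0.0196). The LSK calls of both were lost without LSK KO replicate 1 or 2 or LSK Mut replicate 1 or 2, with adjusted p-values up to 0.291 for Tcof1 and 0.378 for Nop9. They were also lost with the replicate block (0.0528 for Tcof1 and 0.0853 for Nop9) and with the spread of the 2 compared groups (0.171 and 0.178), and that of Nop9 with RLE size factors (0.0515). On a spike-in scale Tcof1 had -0.14 and Nop9 2.56. The direct tests were lost for both without LSK Mut replicate 1 or 2, MPP Mut replicate 1 or MPP WT replicate 1, for Tcof1 without MPP Mut replicate 2 and for Nop9 without MPP WT replicate 2, with adjusted p-values up to 0.0889 and 0.0876. Between LSK and MPP, 9 of the 101 were higher and 14 lower in WT, 3 and 11 in KO, and 1 and 2 in Mut. The shares of all genes called higher and lower were 10.2 and 13.7% in WT, 7.03 and 8.14% in KO, and 3.55 and 5.21% in Mut. Mdn1, a giant ATPase of large subunit maturation, was higher in LSK in all 3 genotypes, by 1.59 in KO, 1.17 in Mut and 1.56 in WT on the log2 scale. Pno1, a small subunit factor, was lower in LSK by 1.21 in KO and by 2.05 in WT. Also higher in LSK were Tcof1 and Nol8 in WT, by 0.77 and 1.15, and Imp3 and Znrd1 in KO, by 0.68 and 0.84. Also lower in LSK were Nop9 and Wdr18 in WT, with log2 differences of -1.99 and -1.06, Nop9 and Exosc10 in KO, with -1.03 and -0.92, and Noc4l and Imp4 in Mut, with -0.87 and -0.55. The median of the 101 was -0.15 in KO, -0.13 in Mut and -0.15 in WT.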

How the data were processed

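RNA-seq of 12 libraries was analysed from the deposited whole-number counts per gene, which the authors made, per the submitters' processing notes, with Trim Galore 0.4.1, TopHat2 2.0.13, HTSeq 0.6.1 and Cufflinks on build mm10. The strand setting and gene annotation of the counting are not given in the sources used here. The 92 spike-in rows were kept out of library sizes and tests except where spike-in scaling is named. No sample column was left unused (0), and the column named MD-3-Lin-KO-2 was taken as MPP KO replicate 2. Genes were kept by edgeR's filterByExpr (minimum count 10, minimum total 15), scaled by TMM and tested with edgeR 4.0.16 quasi-likelihood fits (R 4.3.3) with Benjamini-Hochberg adjustment over all genes of a fit and a threshold of 0.05. The fits were 1 for LSK (6 libraries, 13170 genes), 1 for MPP (6 libraries, 12947 genes) and 1 for all 12 libraries (14033 genes), the last for LSK against MPP and for the difference of effects between populations. DESeq2 1.42.0, other scalings, filters, a replicate block and leaving out each library were the alternatives. The fits were first run on simulated counts whose spread was set near that of the quieter groups, smaller than the spread fitted here. That run does not show how often changes would be found in these libraries. Replicate numbers did not pair the libraries. The genes given by library were up to 16 called in any comparison, the 2 with the largest positive and the 2 with the largest negative difference in each genotype comparison, and 11 leaders of their roles (Polr1a, Polr1b, Rrn3, Ubtf, Taf1b, Ncl, Npm1, Fbl, Dkc1, Pes1, Utp20); of the other assembly genes, up to 3 called per direction and comparison were named. Members and lists were chosen with earlier results of these data known. Depth was 9181027 to 23532847 gene counts, at which 3 counts equal 0.127 to 0.327 CPM, a limit that covers counting error only. Positions, lengths, overlaps and hosted snoRNA genes came from GENCODE on GRCm38, near-identical copies from BLAST 2.17.0, promoters from RefSeq, and figures from matplotlib 3.10.9 (python 3.11.15).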

Additional observations from a re-analysis of the deposited data

Results flagged for a closer look

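For 5 genes the Mut effect against WT differed between LSK and MPP in the direct edgeR test of that difference. The log2 value of the effect in LSK minus that in MPP was -1.69 (SE 0.0959) for Rn45s, -1.29 (SE 0.248) for Tcof1, -1.11 (SE 0.240) for Taf1d, -0.63 (SE 0.137) for Npm1 and 1.51 (SE 0.278) for Nop9. The adjusted p-values were 7.52e-06, 0.0230, 0.0368, 0.0368 and 0.0196. The contrasts share the LSK WT libraries, whose 2 replicates differed more than those of any other group.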

How the results depend on the processing

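On a spike-in scale the median log2 difference of all genes moved to 0.51 in LSK KO against WT, 1.10 in LSK Mut against WT, -0.59 in LSK KO against Mut, -0.59 in MPP Mut against WT, 0.65 in MPP KO against Mut, 4.66, 5.88 and 4.17 for LSK against MPP in KO, Mut and WT, and 0.51 and 1.74 for the KO and Mut effects in LSK minus MPP. The medians of the 40 genes were then 0.48, 0.98, -0.58, -0.53, 0.67, 4.61, 5.80, 4.20, 0.29 and 1.55 in that order, and 11 were called in LSK Mut against WT, 9 in MPP Mut against WT, 25 in MPP KO against Mut, 40 in each LSK against MPP comparison and 25 for the Mut effect. Signs that turned on this scale were, in LSK Mut against WT, Npm1 0.51, Taf1d 0.23 and Ddx21 0.22; in MPP KO against Mut, Heatr1 0.071, Rrn3 0.094 and Rn45s 0.62; in LSK against MPP in KO, Nolc1 3.89, Nop56 4.04, Nhp2 4.04, Bysl 3.16, Bop1 3.71 and Pes1 4.06, in Mut, Nhp2 5.40 and Rn45s 5.83, and in WT, Mybbp1a 3.62, Nhp2 3.79, Bysl 3.39, Nop2 3.05, Bop1 3.08 and Pes1 3.40; for the Mut effect, Taf1d 0.54, Npm1 1.03 and Tcof1 0.38, and for the KO effect, Rn45s 0.058. The cause was not tested. Over all genes, the highest counts called in any alternative were 2297 of 12947 in MPP Mut against WT and 3254 of 12947 in MPP KO against Mut. They were 12011, 12570 and 11550 of 14033 for LSK against MPP in KO, Mut and WT, and 5428 for the Mut effect. The counts among the 40 genes under these settings are therefore not read as a result about them. The same holds for the counts below that have no share of all genes beside them here or above. Among them are all counts without the filter on low counts. Those of DESeq2 in LSK against MPP in Mut and for the Mut effect are also among them. Without the filter on low counts 3 were called in LSK Mut against WT, 1 in MPP KO against WT, 1 in MPP Mut against WT, 3 in LSK against MPP in Mut and 4 for the Mut effect. DESeq2 called 7 in LSK Mut against WT, 2 in LSK KO against Mut, 1 in MPP KO against WT, 1 in MPP KO against Mut, 5 in LSK against MPP in Mut, 1 for the KO effect and 6 for the Mut effect, and its median in LSK KO against WT was -0.055, as with RLE size factors. Without the Rn45s and Lars2 rows 0 were called in LSK Mut against WT, and with the spread of the 2 compared groups alone 0 there and 3 in LSK against MPP in WT.

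The replicate numbers did not pair the libraries (correlations of deviations of -0.0388 to 0.0360 over 15 pairs of groups). With the replicate block, 0 of the 40 genes were called in LSK Mut against WT, where the median was 0.0021, 0 in LSK against MPP in Mut and 0 for the Mut effect.

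With 1 library left out, the count called ranged from 0 to 6 in LSK KO against WT, 0 to 13 in LSK Mut against WT, 2 to 9, 0 to 6 and 5 to 16 for LSK against MPP in KO, Mut and WT, 0 to 4 for the KO effect and 0 to 8 for the Mut effect. The medians ranged from -0.054 to 0.054 in LSK KO against WT, -0.11 to 0.11 in LSK Mut against WT, -0.081 to 0.023 in LSK KO against Mut, 0.0052 to 0.070 in MPP KO against Mut, -0.030 to 0.16 in MPP Mut against WT, -0.16 to -0.00033, -0.10 to -0.035 and -0.14 to 0.028 for LSK against MPP in KO, Mut and WT, and -0.16 to 0.0023 and -0.23 to -0.036 for the KO and Mut effects. Signs turned for Taf1a in LSK KO against WT (-1.22 to 0.11), Taf1c in LSK Mut against WT (-0.11 to 6.83), Rn45s in MPP KO against Mut (-0.14 to 0.075) and in LSK against MPP in Mut (-0.15 to 0.063), Rrn3 in MPP KO against Mut (-1.04 to 0.13), and Rrs1 in MPP KO against WT (-0.81 to 0.53) and MPP Mut against WT (-0.98 to 0.36). Each fit with a library left out kept 1 library in its group. Without an LSK WT library, the gap between the 2 LSK WT libraries no longer entered the spread. Genes called only in those fits are therefore not counted as called. The ranges of counts with 1 library left out have no share of all genes from the same fits beside them. They are therefore not read as a result about the genes described here. Over all genes the counts called in LSK Mut against WT ran from 5 to 3002 across alternatives, beside 168 as reported, and in LSK KO against WT from 0 to 1690, beside 6 as reported.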
